A study of Homo sapiens with 12 samples.

Results

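Immunoglobulin heavy and light chain genes were described across 3 human B cell lymphoma lines, of which 2 were treated with an inhibitor of the histone methyltransferase EZH2. The genes were all variable (V) and constant (C) segments of the heavy chain locus on chromosome 14, the kappa locus on chromosome 2 and the lambda locus on chromosome 22, with related copies elsewhere on those chromosomes, whose symbols carry the standard segment names and that were above 0 FPKM in at least 1 library. This gave 214 of the 63129 genes in the table: 69 heavy chain V genes, 11 heavy chain C genes, 85 kappa V genes, the single kappa C gene, 41 lambda V genes and 7 lambda C genes. A further 39 segments on these chromosomes were listed at 0 in every library and were left out. Of the 214 genes, 17 were orphons, copies that lie outside the functional loci. FPKM is the number of sequenced fragments scaled by the length of the transcript and by sequencing depth, so levels can be set side by side between genes. In at least 1 library, 99 of the genes reached 1 FPKM, 52 reached 10 FPKM and 17 reached 100 FPKM.

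All cells came from established lines (KARPAS-422, Pfeiffer, RL) grown from diffuse large B cell lymphoma of the germinal centre type, and every line carries an activating alteration in the SET domain of EZH2, so no group had unaltered EZH2. KARPAS-422 was given CPI-169 at 1.5 µM (n = 3) or 0.1% DMSO (n = 3), Pfeiffer was given GSK343 at 1.5 µM (n = 2) or 0.1% DMSO (n = 2), and for RL only cells in 0.1% DMSO were sequenced (n = 2), all after 4 days. The labels name KARPAS-422 and Pfeiffer as responsive to EZH2 inhibition and RL as not responsive, and no treated RL library was analysed here. Line and compound change together, so an effect of the line and an effect of the compound cannot be told apart.

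Each B cell joins 1 heavy chain V segment to D and J segments, and 1 kappa or lambda V segment to a J segment, and transcribes the joined V region together with a C region. Heavy chain class switching exchanges the first constant regions, mu (IGHM) and delta (IGHD), for a gamma, epsilon or alpha region further along the locus by deleting the DNA between them. A clonal B cell line is therefore known to show 1 leading V gene and 1 leading light chain type, while unrearranged V and C segments can also give germline transcripts.

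The reference sequences of the V genes that led in each line, and of IGKV2-30, a minor gene of KARPAS-422 called lower with CPI-169, are given because the assignment of reads to 1 gene rests on how far it differs from its relatives. The stretches are the last 290 coding bases of the V exon in the GENCODE 29 annotation of GRCh38, 5′ to 3′ on the coding strand, which is the minus strand for the heavy chain and kappa genes and the plus strand for IGLV2-8. They are germline reference sequences, not those rearranged in the lines. Capitals mark the bases that differ from a base of the comparison gene named in brackets. Bases opposite a gap in that gene stay in lower case, and the counts of differing bases given below include gaps.
IGHV4-39 (IGHV4-4): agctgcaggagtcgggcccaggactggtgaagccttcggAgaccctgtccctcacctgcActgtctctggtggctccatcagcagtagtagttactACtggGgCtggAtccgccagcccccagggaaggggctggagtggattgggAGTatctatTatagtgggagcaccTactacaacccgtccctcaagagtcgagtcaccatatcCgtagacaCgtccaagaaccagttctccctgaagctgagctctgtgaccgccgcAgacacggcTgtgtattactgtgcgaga
IGKV2-28 (IGKV2D-28, no difference): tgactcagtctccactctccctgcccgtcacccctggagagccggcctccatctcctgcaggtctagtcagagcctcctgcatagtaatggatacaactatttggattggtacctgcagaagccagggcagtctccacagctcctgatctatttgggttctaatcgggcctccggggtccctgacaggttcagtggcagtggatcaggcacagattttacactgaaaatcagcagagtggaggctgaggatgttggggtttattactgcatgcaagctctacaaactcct
IGKV2-30 (IGKV2-28): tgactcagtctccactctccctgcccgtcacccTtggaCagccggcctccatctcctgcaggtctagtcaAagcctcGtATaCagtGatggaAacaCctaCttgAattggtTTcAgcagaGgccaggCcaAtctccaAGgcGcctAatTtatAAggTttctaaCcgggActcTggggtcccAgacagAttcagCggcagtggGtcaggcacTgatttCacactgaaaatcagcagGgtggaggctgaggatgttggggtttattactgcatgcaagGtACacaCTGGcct
IGHV3-7 (IGHV3-21): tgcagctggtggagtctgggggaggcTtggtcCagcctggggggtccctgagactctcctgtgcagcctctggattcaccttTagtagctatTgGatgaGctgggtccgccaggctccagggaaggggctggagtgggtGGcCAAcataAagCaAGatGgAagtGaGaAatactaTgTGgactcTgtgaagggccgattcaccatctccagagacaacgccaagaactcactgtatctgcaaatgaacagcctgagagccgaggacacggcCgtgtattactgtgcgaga
IGKV1-5 (IGKV1-9): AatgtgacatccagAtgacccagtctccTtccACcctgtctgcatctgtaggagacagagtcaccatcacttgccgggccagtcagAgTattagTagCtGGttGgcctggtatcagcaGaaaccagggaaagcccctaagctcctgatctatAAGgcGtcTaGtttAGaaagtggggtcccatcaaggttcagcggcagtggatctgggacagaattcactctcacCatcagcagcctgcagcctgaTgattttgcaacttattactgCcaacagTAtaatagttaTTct
IGHV3-23 (IGHV3-48): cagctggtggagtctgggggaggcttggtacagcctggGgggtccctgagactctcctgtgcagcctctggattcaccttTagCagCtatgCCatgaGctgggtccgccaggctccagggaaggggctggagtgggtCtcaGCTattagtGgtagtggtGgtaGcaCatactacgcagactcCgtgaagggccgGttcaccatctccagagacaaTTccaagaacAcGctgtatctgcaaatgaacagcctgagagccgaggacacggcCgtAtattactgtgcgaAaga
IGLV2-8 (IGLV2-11): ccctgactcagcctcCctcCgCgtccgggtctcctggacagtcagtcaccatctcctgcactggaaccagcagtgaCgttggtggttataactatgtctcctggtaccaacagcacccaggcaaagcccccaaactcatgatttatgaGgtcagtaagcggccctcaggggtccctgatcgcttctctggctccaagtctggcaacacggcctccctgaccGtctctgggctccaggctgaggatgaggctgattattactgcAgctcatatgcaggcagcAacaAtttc
Over the whole coding part of the exon, IGKV2-28 and its distal copy IGKV2D-28 were identical (311 bases), so reads from this exon cannot be divided between them. IGKV2-30 differed from IGKV2-28 at 44 bases (85.9% identity) and from its own distal copy IGKV2D-30 at 1 base. IGHV4-39 differed from IGHV4-4 at 21 bases (93.2% identity), IGHV3-7 from IGHV3-21 at 27, IGKV1-5 from IGKV1-9 at 28, IGHV3-23 from IGHV3-48 at 24 and IGLV2-8 from IGLV2-11 at 11 (96.4% identity). The constant genes are also close, with IGHG1 at 95.1% identity to IGHG2, 94.9% to IGHG4 and 94.2% to the pseudogene IGHGP, against 56.1% to IGHE. Values of such relatives are uncertain wherever 1 of them is abundant.

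The 12 libraries had FPKM sums of 369524 to 628281, and depth relative to the first DMSO library of the line was 0.651 to 1 for KARPAS-422, 1 to 1.34 for Pfeiffer and 0.768 to 1 for RL. Absolute depth is unknown, so no counting interval is given. All 8 B cell markers (such as CD79A and MS4A1) averaged at least 1 FPKM in every group. The summed level of 9 markers of T and NK cells was 73.7 to 88.3 FPKM in KARPAS-422, 55.3 to 61.0 FPKM in Pfeiffer and 14.1 to 14.5 FPKM in RL, most of it from CD247 (group means of 9.32 to 59.6 FPKM) and, in KARPAS-422, from CD3G (34.7 FPKM under DMSO and 51.6 FPKM with CPI-169), while CD2 averaged under 0.1 FPKM in every group. Their part in the results was not tested. The summed level of 7 myeloid markers stayed at or below 4.41 FPKM. The summed level of 7 epithelial and stromal markers was 140 to 141 FPKM in Pfeiffer DMSO libraries, 57.6 to 79.4 FPKM with GSK343 and at most 1.64 FPKM in the other lines. EPCAM made up most of it in Pfeiffer, at means of 135 and 58.2 FPKM, whereas KRT18 (2.99 and 4.66 FPKM) and COL1A1 (1.13 and 3.11 FPKM) were higher with GSK343. The labels do not say whether replicates were separate cultures, and p-values then reflect only how far these libraries spread. In bulk RNA, fewer cells of a type and less RNA per cell cannot be told apart.

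At baseline the 3 lines showed 3 separate sets of leading genes. KARPAS-422 was of the gamma-1 kappa type, Pfeiffer held epsilon, gamma-4 and kappa transcripts, and RL held mu, delta and lambda transcripts. IGHM, the mu constant region of naive and memory B cells, was listed at 748 and 772 FPKM in the RL libraries and at 0 in all 10 libraries of the other lines. IGHD, the delta region spliced from the same primary transcript, was listed at 70.2 and 66.2 FPKM in RL and at 0 in the other lines. IGHD stood at 8.58% to 9.38% of IGHM in RL. The 2 constant regions removed by class switching were therefore detected in RL alone among the 3 lines. An FPKM of exactly 0 may be an estimate that failed, so their absence from the other lines is not shown.

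IGHG1, the gamma-1 region, was listed in every line. The DMSO values of IGHG1 were 152, 147 and 139 FPKM in KARPAS-422, 64.3 and 73.5 FPKM in Pfeiffer, and 108 and 109 FPKM in RL, with no overlap between the lines. Those of Pfeiffer are uncertain and may hold reads of IGHG4, which has 94.9% identity and was more abundant there. Of the heavy chain constant FPKM, IGHG1 made up 91.4% to 91.8% in KARPAS-422, but only 7.08% to 7.41% in Pfeiffer, and RL lay between at 10.6% to 10.7%. IGHE, the epsilon region of IgE, was listed at 323 and 394 FPKM in Pfeiffer and at no more than 0.69 FPKM in the other lines under DMSO. The neighbouring IGHG4 stood at 283 and 338 FPKM in Pfeiffer, 3.93 to 4.15 FPKM in KARPAS-422 and 3.76 to 3.94 FPKM in RL. IGHE and IGHG4 together with the epsilon pseudogene IGHEP1, at 125 and 149 FPKM, were the leading heavy chain constant genes of Pfeiffer. IGHEP1 shares 98.0% of its aligned bases with IGHE, and RP11-731F5.1, which overlaps IGHE, stood at 241 and 268 FPKM in the same libraries. Whether counting used strand is not given in the sources used here, so reads of overlapping genes cannot be told apart. IGHA1, an alpha region of mucosal IgA, was highest in RL at 53.6 and 53.0 FPKM.

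Light chain type divided the lines as well. IGKC, the kappa constant region, stood at 493, 591 and 546 FPKM in KARPAS-422 and at 8793 and 9803 FPKM in Pfeiffer, while its RL values were 5.49e-09 and 4.5e-09 FPKM. Kappa made up 99.6% to 99.8% of the light chain constant FPKM in KARPAS-422 and 96.5% to 96.8% in Pfeiffer. AC096579.7, a gene that overlaps IGKC, was listed at 30.6 and 30.3 FPKM in RL, so reads were assigned to the region although IGKC itself was near 0. IGLC1, a lambda constant region, stood at 1153 and 1223 FPKM in RL and made up 89.2% to 89.5% of the lambda constant FPKM there. In Pfeiffer under DMSO, IGLC7 (117 and 118 FPKM), IGLC1 (81.0 and 91.1 FPKM), IGLC2 (41.3 and 41.6 FPKM) and IGLC3 (34.7 and 33.8 FPKM) were also found, although lambda V genes summed to only 6.46 to 6.72 FPKM. The lambda constant signal of Pfeiffer was thus not matched by a lambda V gene of similar level, in contrast to RL, where lambda V genes summed to 1062 to 1114 FPKM.

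A single V gene or gene pair led each class. IGHV4-39 (hg19 chr14:106877618-106878126) led in KARPAS-422 at 7.97, 8.36 and 8.91 FPKM under DMSO, 62.8% to 67.6% of the heavy chain V sum. IGHV3-7 (hg19 chr14:106518399-106518932) led in Pfeiffer at 229 and 206 FPKM, 79.9% to 80.9% of that sum, and was listed at 0 in KARPAS-422. IGHV3-23 (hg19 chr14:106725200-106725733) led in RL at 243 and 251 FPKM, 73.7% to 74.1% of that sum. Each of these genes was near 0 or a minor gene in the other lines. IGHV3-23 stood at 32.5% of the level of IGHM in both RL libraries, IGHV3-7 at 52.3% to 70.9% of the level of IGHE in Pfeiffer, and IGHV4-39 at only 5.26% to 6.4% of the level of IGHG1 in KARPAS-422 DMSO libraries.

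Among the light chains, IGKV2-28 (hg19 chr2:89521178-89521942) and its identical copy IGKV2D-28 (hg19 chr2:89998788-89999564) together held 86.7% to 87.0% of the kappa V sum in KARPAS-422. IGKV1-5 (hg19 chr2:89246818-89247475) held 57.7% to 60.4% of it in Pfeiffer, at 1025 and 934 FPKM, followed by IGKV1-9 at 111 and 95.3 FPKM. IGLV2-8 (hg19 chr22:23165152-23165787) held 87.3% to 88.0% of the lambda V sum in RL, at 927 and 980 FPKM, followed by IGLV2-11 at 56.4 and 55.5 FPKM. The kappa V genes of RL summed to only 12.3 to 13.5 FPKM, led by IGKV4-1 at 5.39 and 5.59 FPKM, the V gene nearest to the kappa J and C segments. In the heat map of levels, each line has its own bright V genes. Only V genes that led a line, alone or as a pair, are drawn, so the map cannot show whether treatment moved levels to another V gene.

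**Figure D1:**
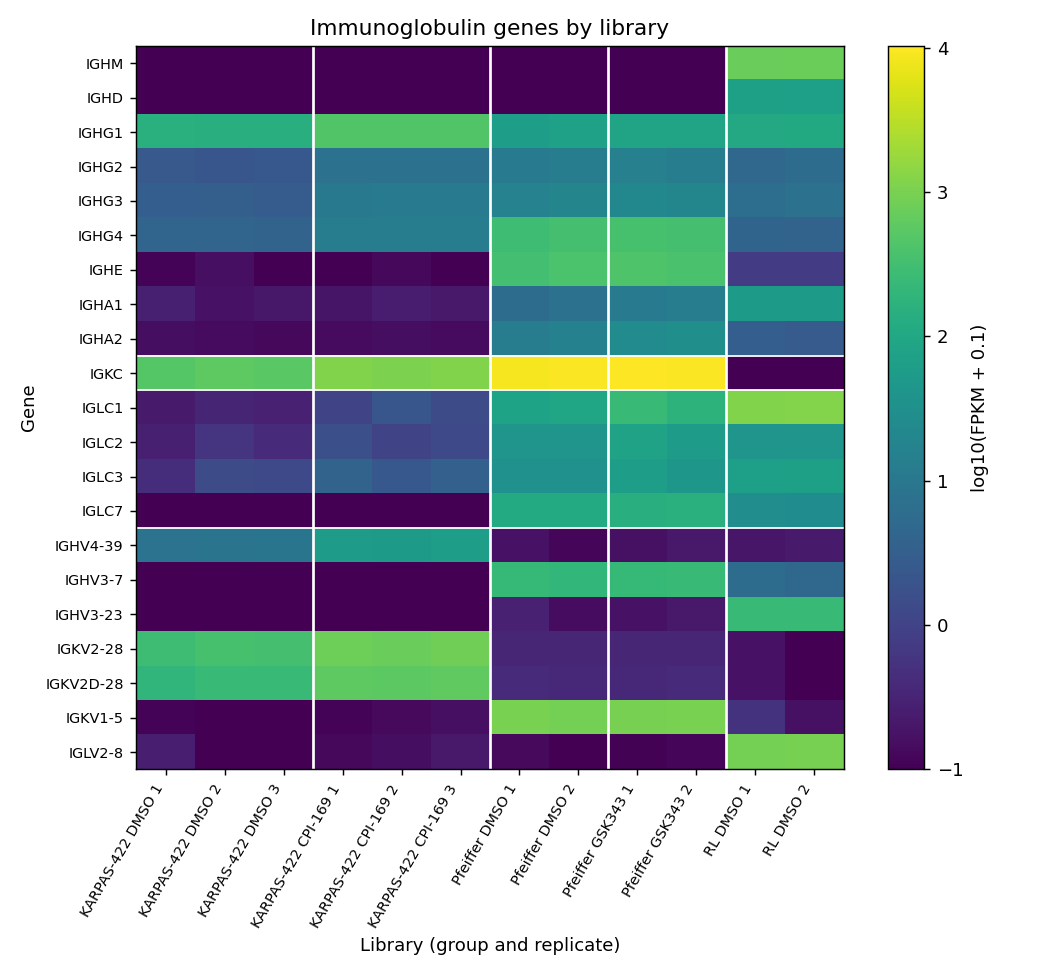
Heat map of log10(FPKM + 0.1) for 21 constant and variable genes (rows) in the 12 libraries (columns, by group and replicate; white lines part the groups and gene classes). IGHM, IGHD, IGHV3-23 and IGLV2-8 are bright in RL, IGHE, IGHG4, IGHV3-7 and IGKV1-5 in Pfeiffer, and IGHV4-39 and the IGKV2-28 pair in KARPAS-422. IGHG1 is bright in every line.

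Across all 91 of the 214 genes that passed the filter of at least 1 FPKM in at least 2 libraries, most were called between each pair of lines, as were most of all genes tested. At an adjusted p under 0.05 in limma on log2(FPKM + 1), 20 were higher and 52 lower in KARPAS-422 than in Pfeiffer, which is 79.1% of the 91 against 83.0% of all 18731 genes tested (39.8% higher and 43.2% lower). RL against KARPAS-422 gave 39 higher and 28 lower (73.6% against 66.8% of all genes, 33.6% higher and 33.2% lower), and RL against Pfeiffer gave 27 higher and 49 lower (83.5% against 74.3%, 35.6% higher and 38.7% lower). Some of the 91 reached 1 FPKM in a single line, so the filter itself set the direction of their calls. IGHM and IGHD in RL, IGHV3-11 in Pfeiffer and IGHV4-39 in KARPAS-422 are among them. The shares called lay on either side of the background, and no test of these shares was made. Each line has its own library numbering in the labels, and an effect of the library series cannot be told apart from that of the line.

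In KARPAS-422, CPI-169 raised the transcripts of the line's own heavy and light chains. IGHG1, the gamma-1 constant region, rose from 146 ± 6.28 to 451 ± 2.45 FPKM (SD, n = 3 each), IGKC rose from 543 ± 49.3 to 1123 ± 70.8 FPKM, and the leading heavy chain V gene IGHV4-39 rose from 8.41 ± 0.473 to 58.8 ± 5.02 FPKM. Of the 91 genes tested, 30 rose, 2 fell and 59 did not pass, which is 35.2% called against 54.2% of all 18731 genes, of which 26.9% rose and 27.3% fell. The median log2 fold change of the 91 was 0.06, beside 0.01 for all genes, and many of the 91 passed the filter through other lines and were near 0 here. Others, IGHV4-4, IGKV2D-24, IGKV1D-27 and IGKV1D-22 among them, reached 1 FPKM in CPI-169 libraries alone, so the filter itself set their direction. Among the 30 genes with a mean of at least 1 FPKM over the 6 KARPAS-422 libraries, a level chosen after the values were seen, 21 rose (70.0%) and 2 fell (6.67%). Of the 14688 genes at that level 61.9% were called, 28.8% higher and 33.1% lower. The median log2 fold change of the 30 was 1.08, beside -0.03 for all genes at that level. This mean takes in the treated libraries, so IGHV4-4 and IGKV1D-27 entered the 30 through their rise. The 21 also hold gamma genes and V gene copies whose reads cannot be fully divided. They are thus not separate results, and the contrast with all genes is no test. The share of all FPKM held by immunoglobulin genes was 0.334% to 0.35% under DMSO and 0.799% to 0.825% with CPI-169.

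Among the heavy chain constant genes, every gamma member rose and no other class reached 1 FPKM. IGHG1 was listed at 152, 147 and 139 FPKM under DMSO and at 453, 451 and 449 FPKM with CPI-169. The groups lay far apart, and IGHG1 was 3.09-fold higher with CPI-169 (log2 fold change 1.62, SE 0.0746, limma adjusted p = 6.7e-08). IGHG2, IGHG3, IGHG4 and the pseudogene IGHGP rose by log2 fold changes of 1.41, 1.59, 1.49 and 1.58, from 2.07 to 4.15 FPKM in the DMSO libraries to 7.58 to 13.4 FPKM with CPI-169. IGHG4 stood at 2.74% to 2.83% of IGHG1 before and at 2.92% to 2.96% after treatment, so these close relatives moved nearly in step with IGHG1. IGHM and IGHD remained listed at 0 in all 6 libraries, and IGHE, IGHA1 and IGHA2 stayed below 0.2 FPKM.

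The leading V gene of the heavy chain rose more than the constant region. IGHV4-39 was listed at 7.97, 8.36 and 8.91 FPKM under DMSO and at 57.0, 54.8 and 64.4 FPKM with CPI-169. All treated libraries lay above all DMSO libraries, at 6.98-fold on the means (log2 fold change 2.66, SE 0.0836, limma adjusted p = 8.88e-09). The level of IGHV4-39 relative to IGHG1 was 5.26%, 5.69% and 6.4% under DMSO and 12.6%, 12.2% and 14.4% after CPI-169, with no overlap, and its share of the heavy chain V sum went from 62.8% to 67.6% up to 79.0% to 81.2%. IGHV4-4 (hg19 chr14:106478109-106478603), the relative with 93.2% identity shown above, went from 0.71 to 0.99 FPKM under DMSO to 7.67 to 8.5 FPKM with CPI-169 (log2 fold change 2.26, limma adjusted p = 3.21e-08). No library outside the CPI-169 group reached 1 FPKM of IGHV4-4, so the filter set the direction of its call. IGHV5-78 (hg19 chr14:107259337-107259632), a pseudogene at the far end of the V cluster that shares only 60.8% of its bases with IGHV4-39, was listed at 3.31, 3.65 and 3.10 FPKM under DMSO and at 6.49, 5.14 and 6.61 FPKM with CPI-169. It rose by a log2 fold change of 0.70 (SE 0.183, limma adjusted p = 0.0079), less than IGHV4-39 did.

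**Figure D2:**
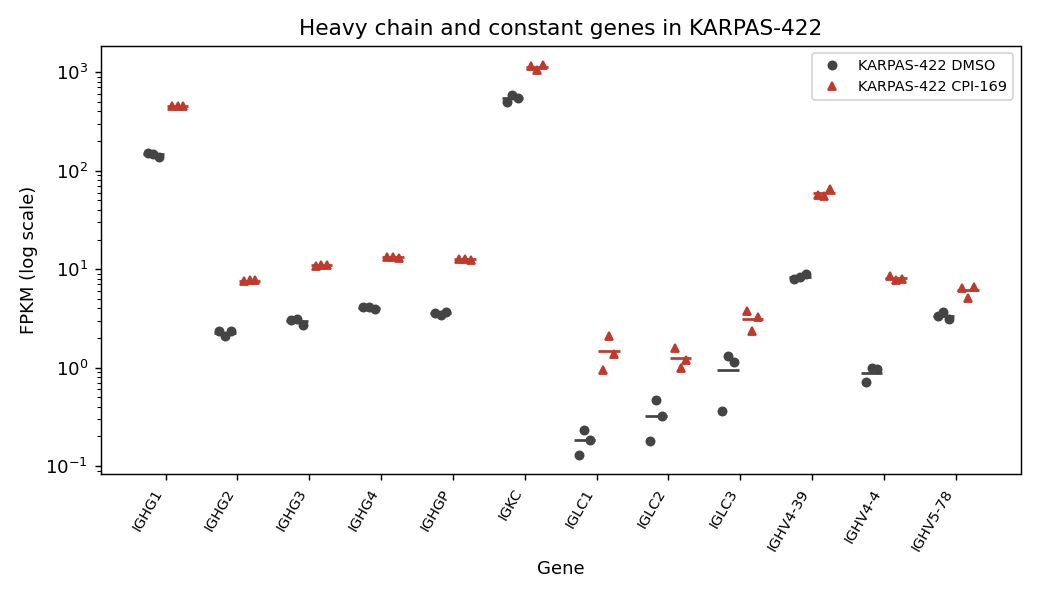
FPKM of heavy chain and constant genes in KARPAS-422 on a log axis, with 1 point per library (circles DMSO, triangles CPI-169) and a line at each group mean. All triangles lie above all circles for IGHG1 (449 to 453 against 139 to 152 FPKM), IGKC, IGHV4-39 and IGHV4-4, and the lambda constant genes IGLC1 to IGLC3 stay below 4 FPKM.

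The kappa chain rose as well, though by less. IGKC was listed at 493, 591 and 546 FPKM under DMSO and at 1155, 1042 and 1173 FPKM with CPI-169, a 2.07-fold difference (log2 fold change 1.05, SE 0.111, limma adjusted p = 1.89e-05). Relative to IGHG1, IGKC went from 325% to 403% under DMSO to 231% to 261% with CPI-169, with no overlap. The overlapping AC096579.7 moved with it, from 45.3 to 54.8 FPKM to 97.2 to 106 FPKM. IGKV2-28 was listed at 284, 350 and 341 FPKM under DMSO and at 817, 748 and 842 FPKM with CPI-169 (log2 fold change 1.31, SE 0.0867, limma adjusted p = 7.78e-07). Its copy IGKV2D-28 was listed at 199, 240 and 251 FPKM and at 597, 559 and 624 FPKM (log2 fold change 1.37, SE 0.0894, limma adjusted p = 7.11e-07). The pair did not overlap between the groups, and its share of the kappa V sum went from 86.7% to 87.0% up to 92.2% to 93.1%.

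Other kappa V genes of KARPAS-422 moved in different directions. IGKV2-30 (hg19 chr2:89544263-89545079) was listed at 9.94, 11.6 and 13 FPKM under DMSO and at 4.83, 3.88 and 5.94 FPKM with CPI-169. It fell by 1.10 on the log2 scale (SE 0.13, limma adjusted p = 4.24e-05), and its near copy IGKV2D-30 (hg19 chr2:89975668-89976489) fell by 1.21 (SE 0.11, limma adjusted p = 6.68e-06), from 8.20, 8.66 and 10.0 FPKM to 3.23, 2.75 and 4.01 FPKM. These were the only 2 of the 91 genes called lower, and the groups did not overlap for either. The pair went from 2.99% to 3.38% of the kappa V sum down to 0.472% to 0.625%. IGKV1-33 and its identical copy IGKV1D-33, chosen after their values were seen, summed to 18.6 to 21.8 FPKM under DMSO and to 19.4 to 22.5 FPKM with CPI-169. The pair of IGKV2-29 and IGKV2D-29, chosen in the same way, summed to 17.9 to 22.1 FPKM and to 20.4 to 26.7 FPKM, and none of these 4 genes passed the test. Genes at lower levels rose with the leading pair: IGKV1-37 from 1.62 to 1.89 FPKM up to 5.02 to 7.21 FPKM (log2 fold change 1.31), IGKV1D-37 by 1.39, IGKV2-40 by 1.16, IGKV2D-40 by 1.15, IGKV1D-39 by 0.97, IGKV1D-8 by 1.26 and IGKV2D-24 by 1.20. IGKV2D-24 reached 1 FPKM in CPI-169 libraries alone, so the filter set the direction of its call. IGKV2-40 differs from IGKV2-28 at 33 bases (89.5% identity), whereas IGKV1-37 shares 65.5% of its bases with it.

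**Figure D3:**
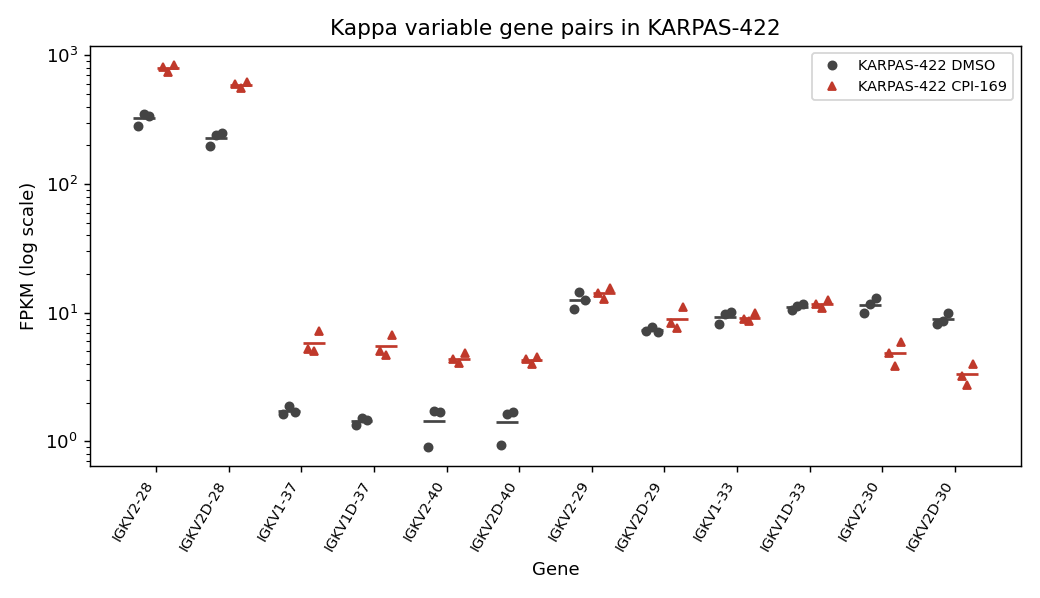
FPKM of kappa V gene pairs (proximal and distal copy) in KARPAS-422 on a log axis, with 1 point per library (circles DMSO, triangles CPI-169) and a line at each group mean. The IGKV2-28 pair rises to between 559 and 842 FPKM, the IGKV1-33 pair overlaps between the groups, and the IGKV2-30 pair falls to between 2.75 and 5.94 FPKM.

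Lambda genes remained minor in KARPAS-422. IGLC3 went from 0.36, 1.30 and 1.15 FPKM under DMSO to 3.80, 2.34 and 3.30 FPKM with CPI-169 (log2 fold change 1.12, limma adjusted p = 7.94e-04), and IGLC1 and IGLC2 rose by 1.04 and 0.77 on the log2 scale. Kappa still made up 99.4% to 99.5% of the light chain constant FPKM. Of 13 lambda V genes tested 1 rose, and the leading IGLV1-51 and IGLV8-61 gave log2 fold changes of 0.13 and 0.06 that did not pass and that turned negative after quantile normalization. IGLL5, which overlaps IGLC1 and holds its constant exon, rose from 0.268 to 0.504 FPKM up to 8.62 to 10.1 FPKM (log2 fold change 2.89, limma adjusted p = 2.41e-08). The 23 called genes named here for CPI-169 were called under each of the alternatives that tested them, though some were named for that call.

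Genes of the immunoglobulin pathway were counted from 5 lists. Of 10 B cell receptor partners and surrogate light chain genes tested in KARPAS-422, 3 rose and 2 fell with a median log2 fold change of 0.02, among them IGLL5 and the surrogate light chain gene IGLL1 (log2 fold change 0.82). Of 13 genes of polymer assembly and secretion, 6 rose and none fell: IGJ, the joining chain of IgM and IgA polymers, went from 1.35, 2.41 and 1.69 FPKM to 38.1, 30.4 and 34.8 FPKM (log2 fold change 3.67, limma adjusted p = 1.58e-07), MZB1, a chaperone cofactor of antibody secretion, rose by 1.11, and FKBP11, a folding enzyme of the endoplasmic reticulum, by 1.06. The list median was 0.23 beside 0.01 for all genes. Of 24 transcription factors known at immunoglobulin promoters and enhancers, 6 rose and 11 fell with a median of -0.20, with ID2, an inhibitor of E proteins, up by 1.94, the octamer factor POU2F2 up by 0.93 from 89.2 to 104 FPKM to 174 to 191 FPKM, and CTCF down (it fell by 0.87). The octamer coactivator POU2AF1, chosen after its values were seen, gave 362 to 412 FPKM and 393 to 416 FPKM and did not pass (log2 fold change 0.07, and -0.10 after quantile normalization).

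Of 12 genes of the plasma cell switch, 4 rose and 2 fell, with a median of 0.09. BACH2, a repressor of plasma cell differentiation, went from 0.871, 0.591 and 1.03 FPKM to 22.9, 28.3 and 26.6 FPKM (log2 fold change 3.88, limma adjusted p = 4.03e-09), TNFRSF17, the plasma cell receptor BCMA, rose by 0.85, and CD38, below 1 FPKM in all 6 libraries, by 0.77. Of 16 genes of V(D)J recombination, hypermutation and class switching, 3 rose and 7 fell, with a median of -0.22. The repair factor TP53BP1 fell by 0.97 and the polymerase POLH by 0.89. The summed level of 6 germinal centre markers was 339 to 358 FPKM under DMSO and 496 to 507 FPKM with CPI-169, and that of 5 plasma cell markers was 47.3 to 57.3 and 54.1 to 60.8 FPKM. Their part in the rise of the immunoglobulin genes was not tested.

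In Pfeiffer, the leading immunoglobulin genes were not called with GSK343 on the deposited scale, and 5 of the 10 calls fell on less abundant alpha and lambda constant genes. IGHA2 and IGHA1, the alpha regions of IgA, and IGLC1, IGLC2 and IGLC7 of the lambda locus were called higher. The value of IGLC1 depends on how reads of the exon shared with IGLL5 were divided. Of the 91 genes tested, 8 rose, 2 fell and 81 did not pass, which is 11.0% called against 29.5% of all 18731 genes, of which 12% rose and 17.5% fell. The median log2 fold change of the 91 was 0.02, beside -0.03 for all genes. Among the 49 genes with a mean of at least 1 FPKM over the 4 libraries, a level chosen after the values were seen, 8 rose (16.3%) and 1 fell (2.04%). Of the 15897 genes at that level 32.6% were called, 12.6% higher and 20.0% lower. Their median log2 fold change was 0.08, beside -0.08 for all genes at that level. The share of all FPKM held by immunoglobulin genes was 1.92% to 2.13% under DMSO and 2.37% to 2.5% with GSK343, with no overlap. The FPKM sum of all genes was 610420 to 628281 under DMSO and 524701 to 589327 with GSK343, so the scale itself differed between the groups. The count depends on single libraries and on scaling: it was 4 without DMSO replicate 1 and 15 without GSK343 replicate 1, and it was 19 higher and 1 lower after median scaling and 16 higher and 3 lower after quantile normalization. With the 4 Pfeiffer libraries fitted alone, limma called 0 of the 91 genes, with 10 at an unadjusted p under 0.05.

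IGKC, IGHE, IGHV3-7, IGKV1-5 and IGHG4, the major transcripts, did not pass the test on the deposited scale. IGKC was listed at 8793 and 9803 FPKM under DMSO and at 10292 and 9639 FPKM with GSK343 (log2 fold change 0.10, SE 0.136, limma adjusted p = 0.618). IGHE was listed at 323 and 394 FPKM and at 432 and 368 FPKM (log2 fold change 0.16, limma adjusted p = 0.316). The treated and DMSO values of both genes overlapped. IGHV3-7 was listed at 229 and 206 FPKM and at 233 and 244 FPKM, with a log2 fold change of 0.13. IGKV1-5 was listed at 1025 and 934 FPKM and at 978 and 1006 FPKM, with a log2 fold change of 0.02. IGHG4 was listed at 283 and 338 FPKM and at 365 and 346 FPKM (log2 fold change 0.20, limma adjusted p = 0.12), and IGHG1 at 64.3 and 73.5 FPKM and at 85.3 and 82.6 FPKM (log2 fold change 0.28, SE 0.0913, limma adjusted p = 0.0399). IGHG4 was called higher under 4 of 21 alternatives, which were the 3 other scalings (0.34 to 0.36) and leaving out DMSO replicate 2 (0.33), and IGHV3-7 under median scaling (0.30, limma adjusted p = 0.0309). The treated libraries lay above the DMSO libraries for both gamma genes, but the call on IGHG1 was lost under 11 of 21 alternatives, among them leaving out DMSO replicate 1 (0.19), GSK343 replicate 1 (0.26) or any of 7 libraries of the other lines (0.28 in each case). None of 37 kappa V genes tested was called in limma, and 1 of 23 heavy chain V genes, IGHV3-33, rose (0.33), a call lost without either DMSO replicate or GSK343 replicate 2. IGHV3-74, at 1.60 and 1.24 FPKM and at 0.38 and 0.72 FPKM, fell by 0.65. It reached 1 FPKM in Pfeiffer DMSO libraries alone, so the filter set the direction of its call. IGHV2-70 fell by 0.34, a call lost under 18 of 20 alternatives, among them leaving out DMSO replicate 1, either GSK343 replicate or any library of the other lines.

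The alpha regions showed a clearer separation. IGHA2 was listed at 12.8 and 15.8 FPKM under DMSO and at 26.1 and 31.1 FPKM with GSK343, a 2.00-fold difference (log2 fold change 0.96, SE 0.119, limma adjusted p = 2.45e-04). IGHA1 was listed at 5.75 and 7.18 FPKM and at 11.2 and 12.6 FPKM, a 1.84-fold difference (log2 fold change 0.79, SE 0.11, limma adjusted p = 4.85e-04). The groups did not overlap for either gene. Both alpha genes share 92.2% of their aligned bases, and in KARPAS-422 both stayed below 0.2 FPKM.

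IGLC1, IGLC2 and IGLC7 of the lambda locus were called higher without their V genes reaching a comparable level. IGLL5 holds the exon of IGLC1 and was lower in the same libraries, at 306 and 277 FPKM under DMSO and 210 and 160 FPKM with GSK343. The listed rise of IGLC1 thus depends on how reads of that exon were divided, which was not tested. IGLC1 was listed at 81.0 and 91.1 FPKM under DMSO and at 238 and 176 FPKM with GSK343, a 2.41-fold difference (log2 fold change 1.24, SE 0.192, limma adjusted p = 9.3e-04). IGLC2 was listed at 41.3 and 41.6 FPKM and at 78.6 and 57.9 FPKM (log2 fold change 0.69, SE 0.163, limma adjusted p = 0.0102). Neither gene overlapped between the groups, and GSK343 replicate 1 was the higher of the treated libraries for both. The call on IGLC2 was lost without either DMSO replicate. IGLC7 rose by 0.30 (limma adjusted p = 0.0136), a call lost without either DMSO replicate, and IGLC3 at 34.7 and 33.8 FPKM and at 61.4 and 44.5 FPKM did not pass (0.60, limma adjusted p = 0.0955), though it was called under the 3 other scalings (0.67 to 0.76) and without KARPAS-422 DMSO replicate 1 (0.60). IGLV5-52 was the lambda V gene called, at 1.04 and 1.73 FPKM and at 1.94 and 2.76 FPKM (0.49), a call lost without DMSO replicate 1 or GSK343 replicate 2. Lambda V genes summed to 8.86 to 10.2 FPKM with GSK343, against 480 to 574 FPKM for the lambda constant genes.

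Genes around the lambda constant regions were looked at after these values were seen. The joining segment IGLJ1, which lies just before IGLC1, was near 0 in both DMSO libraries and stood at 12.2 and 11.7 FPKM with GSK343. IGLJ1 reached 1 FPKM in GSK343 libraries alone, so the filter set its direction and it is no support for a rise. It also lies within the span of IGLL5, so reads there can be divided in more than 1 way. IGLJ2 was listed at 5.25 and 4.76 FPKM and at 14.2 and 10.5 FPKM (log2 fold change 1.14, limma adjusted p = 5.2e-04), and IGLJ3 at 1.58 and 1.50 FPKM and at 6.05 and 3.14 FPKM (log2 fold change 1.09, limma adjusted p = 0.00376). IGLL5, whose transcript starts upstream and ends in the exon of IGLC1, was listed at 306 and 277 FPKM and at 210 and 160 FPKM, and it fell by 0.67 (limma adjusted p = 0.00441). IGLC1 and IGLL5 thus moved in opposite directions in Pfeiffer, and reads from the exon that they share can be divided between them in more than 1 way. In KARPAS-422 both rose.

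**Figure D4:**
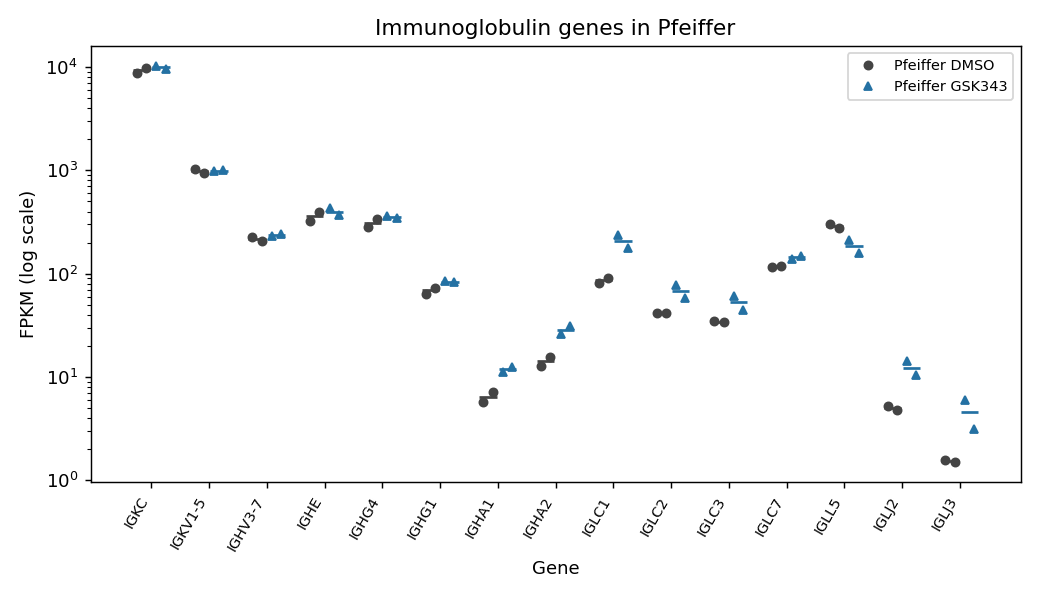
FPKM of immunoglobulin genes and lambda neighbours in Pfeiffer on a log axis, with 1 point per library (circles DMSO, triangles GSK343) and a line at each group mean. IGKC, IGKV1-5 and IGHE overlap between the groups, while IGHA1, IGHA2, IGLC1, IGLC2, IGLJ2 and IGLJ3 lie higher with GSK343 and IGLL5 lies lower (160 to 210 against 277 to 306 FPKM).

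Another V gene differed between the treated libraries themselves. IGHV1-69, chosen after its values were seen, was listed at 6.05 and 5.84 FPKM under DMSO and at 7.13 and 26.2 FPKM with GSK343, with no call (log2 fold change 1.10, limma adjusted p = 0.0569). The high value came from GSK343 replicate 2 alone. The same libraries also differed in the summed level of 6 germinal centre markers, which was 127 to 130 FPKM under DMSO and 128 to 309 FPKM with GSK343.

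Among the pathway lists in Pfeiffer, 1 of 10 B cell receptor partners rose and 2 fell with a median of -0.20, with VPREB3, a protein that binds free light chains in the secretory pathway, falling by 1.11, and CR2, the complement co-receptor, at no more than 1.15 FPKM, rising by 0.65. None of 13 genes of polymer assembly and secretion rose and 5 fell. IGJ was listed at 2634 and 2296 FPKM and at 1947 and 1145 FPKM, and it fell by 0.72 (limma adjusted p = 0.0407), a call that was lost under 16 of 21 alternatives, among them without DMSO replicate 1 or 2, GSK343 replicate 2 or any of 5 libraries of the other lines. The chaperone SDF2L1 fell by 0.91, a call lost without either DMSO replicate, and the signal peptidase subunit SEC11C fell by 0.84, a call lost without DMSO replicate 1 or GSK343 replicate 2. The list median was -0.51 beside -0.03 for all genes. Of 24 transcription factors, 3 rose and 2 fell, with FOXO1 up by 0.95, RUNX1 up by 0.90 and IRF4 up by 0.55, and the list median was 0.07. The call on IRF4 was lost under 16 of 21 alternatives, among them without either DMSO replicate, GSK343 replicate 2 or any of 8 libraries of the other lines. Each call named for the pathway lists in Pfeiffer was lost with the line fitted alone.

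Of 12 genes of the plasma cell switch in Pfeiffer, 3 rose and 3 fell, with a median of 0.19. PRDM1, the repressor that drives plasma cell differentiation, was listed at 1.16 and 1.44 FPKM and at 12.5 and 6.05 FPKM (log2 fold change 2.08, limma adjusted p = 9.22e-05), CD38 rose by 0.98, a call lost without either DMSO replicate or GSK343 replicate 1, and CSTF2, a polyadenylation factor linked to the secreted form of heavy chains, fell by 0.69. Of 16 genes of recombination, hypermutation and switching, 2 rose and 9 fell, with a median of -0.48. The exonuclease EXO1 fell by 1.53 and the mismatch repair gene MSH6 by 1.02. The summed level of 5 plasma cell markers was 1184 to 1256 FPKM under DMSO and 934 to 969 FPKM with GSK343. TNFRSF17, MZB1 and XBP1 made up most of it and had lower means with GSK343. PRDM1 (1.3 and 9.25 FPKM) and SDC1 (0.239 and 0.586 FPKM), also on that list, had higher means with GSK343. The part of these markers in the results was not tested.

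The effects of the treatments in the 2 lines were compared directly in the same fit. The difference of the effects was called for 28 genes in the direction of KARPAS-422 and for 6 in the direction of Pfeiffer, which is 37.4% of the 91 against 42.6% of all genes (23.8% and 18.8%), and it was 25 and 10 after median scaling. Of 13 named genes with a group mean of at least 1 FPKM in both lines, 10 differed, all with the larger effect in KARPAS-422. IGKV1-37, IGKV1D-39 and IGKV1D-8 were named for their call in KARPAS-422, so their direction is partly set by that choice and is no support for a larger effect there. The gamma genes differed by 1.22 to 1.37 on the log2 scale, with IGHG1 at 1.62 in KARPAS-422 and 0.28 in Pfeiffer (difference 1.34, SE 0.118, limma adjusted p = 1.98e-05). IGHG2, IGHG3, IGHG4 and IGHGP are relatives of the far more abundant IGHG1 in KARPAS-422, so their values there are uncertain and may hold IGHG1 reads. In Pfeiffer, the values of IGHG1 and the other gamma genes may likewise hold reads of the more abundant IGHG4. The gamma genes are then not separate results. IGKC differed by 0.95 (SE 0.175, limma adjusted p = 0.0017, and 0.13 with the replicate block), IGHV5-78 by 1.21, IGKV1-37 by 1.34, IGKV1D-39 by 1.09 and IGKV1D-8 by 1.27, the last lost without Pfeiffer DMSO replicate 1 (1.11) or GSK343 replicate 2 (1.22). IGLC1 and IGLC2 were called higher in both lines, with IGLC1 in Pfeiffer subject to the division of reads with IGLL5. The differences between the effects did not pass, at -0.21 (SE 0.248) and 0.08 (SE 0.211), nor did that of IGLC3 at 0.52 (SE 0.32). IGLC1 stood at only 0.131 to 0.234 FPKM in the KARPAS-422 DMSO libraries and at 0.946 to 2.09 FPKM with CPI-169, and with a pseudocount of 0.1 the difference was 1.17 in the direction of KARPAS-422 (limma adjusted p = 0.0311). A difference that misses the threshold does not show that the effects were equal. The treatments used different compounds and share no control libraries.

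**Figure D5:**
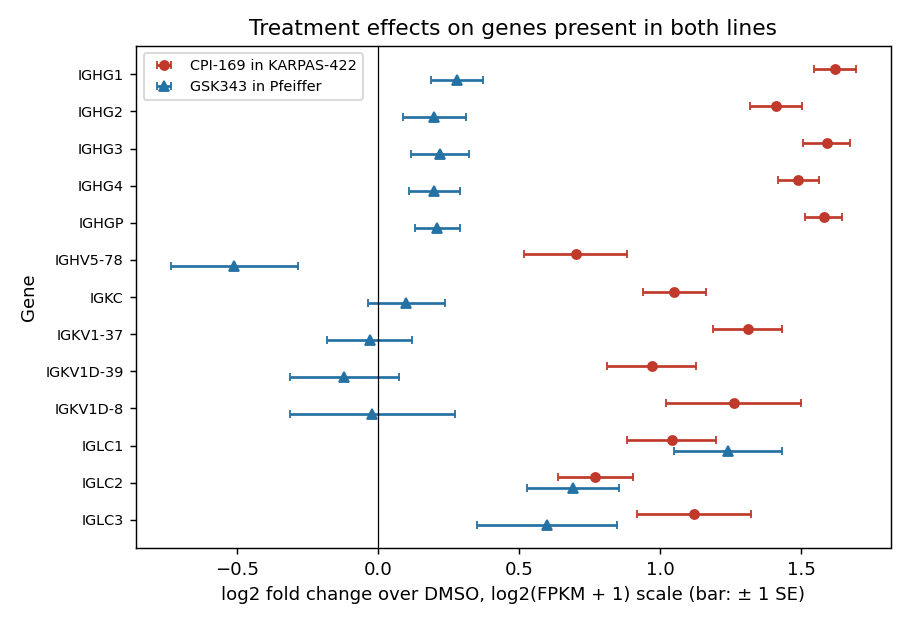
Log2 fold changes over DMSO, on the log2(FPKM + 1) scale with bars of 1 SE, of 13 genes with a group mean of at least 1 FPKM in both treated lines (circles CPI-169 in KARPAS-422, triangles GSK343 in Pfeiffer). The gamma genes, IGHV5-78, IGKC and the kappa V genes lie further right for CPI-169 (0.70 to 1.62) than for GSK343 (-0.51 to 0.28), and for IGLC1 and IGLC2 the markers lie close together.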

How the data were processed

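RNA from 12 libraries was analysed. TopHat 1.4.1, Cufflinks and the hg19 build are named in the submitters' processing notes, and the authors deposited 1 table of FPKM values. Not given in the sources used here are the version of Cufflinks, the annotation release, the strand setting, the kit, and which library was lysed in Trizol or in RLT. Reads from mutated, rearranged V genes can be lost or assigned to relatives in such a table, by an amount not measured here. An FPKM of exactly 0 may be an estimate that failed.

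Columns were matched to samples by title. Loci are 1-based hg19 positions from the table. Missing values left out 77 genes, none of them members. Genes with at least 1 FPKM in 2 libraries (18731, 91 of them members) were transformed to log2(FPKM + 1), a scale that understates changes of low genes, and limma 3.58.1 (R 4.3.3) fitted all 5 groups at once with an intensity trend, giving 7 residual and 3.45 prior degrees of freedom. Benjamini-Hochberg adjustment ran over all genes tested, at a threshold of 0.05. The fit was tested on simulated data. Absolute depth is unknown, and relative depth was read from step sizes among low values.

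The named genes were constant genes whose mean reached 1 FPKM in any group, the 2 highest V genes of each class and line, at most 10 further called genes a treatment, and at most 3 called genes a pathway list and treatment. Members and lists were chosen with earlier results of these data known. Replicate numbers did not pair the samples in KARPAS-422 (correlations of deviations -0.152, -0.252 and 0.156), and Pfeiffer has 2 pairs only. Sequences came from GENCODE 29, which held 210 of the 214 members, and were aligned with Biopython 1.88. Alternatives were other pseudocounts, filters and scalings, a replicate block, each line alone and leaving out each library. Some genes that this rule names are not reported here.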

Additional observations from a re-analysis of the deposited data

Results flagged for a closer look

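The effects of treatment differed between the lines, by the test of the difference in limma, for 10 genes present in both. On the log2(FPKM + 1) scale the effect in KARPAS-422 exceeded that in Pfeiffer by 1.34 for IGHG1, 1.22 for IGHG2, 1.37 for IGHG3, 1.29 for IGHG4, 1.36 for IGHGP, 0.95 for IGKC, 1.21 for IGHV5-78, 1.34 for IGKV1-37, 1.09 for IGKV1D-39 and 1.27 for IGKV1D-8. IGKV1-37, IGKV1D-39 and IGKV1D-8 were named for their call in KARPAS-422, which partly sets their direction. The values of IGHG2, IGHG3, IGHG4 and IGHGP in KARPAS-422 are uncertain beside the far more abundant IGHG1. Those of IGHG1 and the other gamma genes in Pfeiffer are uncertain beside IGHG4, so the gamma genes may not be separate results. Among all genes tested, 42.6% were called for this difference. The call was lost for IGKC under 1 of 20 alternatives, the replicate block, and for IGKV1D-8 under 3 of 20, which were no filter and leaving out Pfeiffer DMSO replicate 1 or GSK343 replicate 2, and was kept under all 20 for the other 8 genes.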

How the results depend on the processing

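In KARPAS-422, the 23 named genes that were called kept their direction and call under each alternative that tested them, which was all 21 except for IGKV2-40, IGKV2D-24 and IGKV2D-40, not tested with a minimum of 5 FPKM. Some of the 23, IGHV4-4, IGKV1-37 and IGKV2-30 among them, were named for this same call. The tally is therefore partly set by that choice. The count of called genes was 31 to 35 with single libraries left out. In Pfeiffer the count of 10 moved to 6 with a minimum of 5 FPKM, 19 after quantile normalization, 20 after median scaling, 5 with the replicate block and 0 with the line fitted alone (10 at an unadjusted p under 0.05), and ran from 4 to 15 with single libraries left out. None of the 10 named calls held under every alternative. The replicate block changed no other count by over 1.5 times. KARPAS-422 against Pfeiffer gave 46 called genes with a minimum of 5 FPKM, where fewer genes are tested, and RL against Pfeiffer gave 117 with no filter, where more are.

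The values that changed sign had not passed the test as reported. For CPI-169 these were IGLV1-51 at -0.06, IGLV8-61 at -0.13 and POU2AF1 at -0.10 after quantile normalization. For GSK343, after quantile normalization, median scaling and rescaling without immunoglobulin genes, IGKV1-37 gave 0.15, 0.13 and 0.13, IGKV1-9 0.16, 0.15 and 0.15, IGKV1D-39 0.04, 0.04 and 0.04, and IGKV1D-8 0.15, 0.15 and 0.14. With single libraries left out, log2 fold changes ran from -0.18 to 0.12 for IGKV1-37, -0.12 to 0.10 for IGKV1-9, -0.31 to 0.07 for IGKV1D-39, -0.18 to 0.14 for IGKV1D-8, -0.05 to 0.09 for IGKV1-5, -0.08 to 0.32 for IGLC5 and -0.02 to 0.29 for POU2AF1. For the difference of the effects, IGLC1 gave 1.17 with a pseudocount of 0.1 and 0.24 with 0.5, IGLC2 gave -0.24 after quantile normalization and -0.06 after median scaling, and with single libraries left out they ran from -0.42 to 0.01 and from -0.14 to 0.30. The cause was not tested.

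Against the deposited scale, the median over all genes shifted by 0.11 under median scaling for GSK343, and by -0.18 to 0.45 for KARPAS-422 and -0.15 to 0.27 for RL, both against Pfeiffer, over the scalings. With an arm of 1 library, that library is assumed to vary like the other groups. Unknown depth limits all low values.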
